A study of Mus musculus with 6 samples.

Results

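The genes examined here serve protein folding in the endoplasmic reticulum (ER) and the unfolded protein response (UPR) of the mouse incisor mesenchyme. They were selected by symbol, and all 34 were found among the 23718 genes of the deposited table. Mesenchymal stem cells (MSCs) were captured by laser microdissection from incisors of Gli1-CreER;tdT mice, and transit amplifying cells (TACs), the dividing progeny of the stem cells, from Axin2-CreER;tdT mice. All mice were labelled C57BL/6, although the methods of the study speak of a mixed background, were 1 month old, carried a tamoxifen-dependent Cre with a red fluorescent reporter, and had received tamoxifen 1 day before, so the groups differed in the gene that drives Cre and had no untreated control. There were 3 MSC and 3 TAC samples. The driver genes mark cells by their expression of Gli1 or Axin2, and a captured area can also hold neighboring cells.

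Secreted and membrane proteins enter the ER through the translocon and are folded there by chaperones, lectins and disulfide isomerases. Proteins that fail are passed back to the cytosol for degradation. When folding falls behind, the sensors encoded by Ern1 (IRE1), Eif2ak3 (PERK) and Atf6 start the UPR, which slows translation and induces folding and degradation genes. Cells that lay down mineralized matrix, such as odontoblasts and osteoblasts, export large amounts of collagen through this route.

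The libraries held 20203159 to 108156380 estimated reads and formed sets shared by both groups. Replicates 1 and 2 had 8.28% to 9.07% of reads in mitochondrial ribosomal RNA and no read in 6.89% to 8.36% of listed genes, whereas replicate 3 of either group had 0.112% or 0.236% and no read in 28.3% (TAC) or 43.1% (MSC). Values are therefore also given within replicates 1 and 2 and within replicate 3, which offers 1 library a group and so no test. The dental mesenchyme genes Msx1, Pax9, Prrx1 and Vim had reads in all 6 libraries, and the proliferation gene Mki67 was 41.5 to 137 in MSC and 122 to 630 in TAC. Axin2 was 12.01 to 58.3 in MSC and 34.1 to 63.9 in TAC, and Gli1 was 245 to 422 and 141 to 396, so the ranges of both driver genes overlapped. Gli1 was higher in MSC than in the like-numbered TAC library each time (256 and 153, 245 and 141, 422 and 396). Axin2 was higher in TAC in replicates 2 and 3 but not in replicate 1. All values, listed in the order of replicates 1, 2 and 3, are the deposited normalized values, a number of reads scaled per library. They are not divided by gene length, and a lower value in a bulk sample cannot tell fewer expressing cells from less RNA per cell.

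Several of these genes are textbook targets of ATF6 and XBP1, which act through the ER stress response element (ERSE), spelled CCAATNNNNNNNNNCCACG, and its second form (ERSE-II), spelled ATTGGNCCACG. RefSeq promoter windows (GRCm38.p6, the mm10 assembly) covering 250 bases before to 50 bases after the transcript start were held for 28 of the 34 genes. The last 30 bases of the window were found in a GENCODE transcript of the same gene for 25 of the 28, and not for Dnajc3, Pdia4 and Trib3. They were searched for exact matches on both strands. An ERSE was present in the windows of 9 of these 28 genes, against 0.119% of all 32851 windows, and an ERSE-II in 2, against 0.0365%. Of the other ER genes described below, 110 had a window, and 0 of these held either form. The lines show each ERSE with 6 flanking bases, read on the strand where it runs as spelled, with the fixed letters in capitals and the flanks and spacer in lower case. They are shown because 9 genes share them. The genes were chosen by symbol and not by sequence, but they include known targets of ATF6 and XBP1. The share with an ERSE is therefore not independent of that choice.
Calr (chr8:84847069-84847099): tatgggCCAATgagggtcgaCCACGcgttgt
Canx (chr11:50325794-50325824): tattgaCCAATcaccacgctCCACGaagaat
Creld2 (chr15:88819514-88819544): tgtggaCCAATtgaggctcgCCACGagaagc
Derl3 (chr10:75893236-75893266): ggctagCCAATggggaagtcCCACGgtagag
Dnajc3 (chr14:118937821-118937851): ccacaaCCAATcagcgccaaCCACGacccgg
Hsp90b1 (chr10:86705632-86705662): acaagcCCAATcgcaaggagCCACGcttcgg
Hsp90b1 (chr10:86705527-86705557): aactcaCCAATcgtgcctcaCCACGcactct
Hspa5 (chr2:34772019-34772049): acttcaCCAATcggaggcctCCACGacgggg
Pdia6 (chr12:17266485-17266515): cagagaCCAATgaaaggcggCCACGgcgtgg
Syvn1 (chr19:6046526-6046556): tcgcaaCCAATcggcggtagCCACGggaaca

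The ERSE-II matches, in Dnajb11 and Herpud1, are shown in the same way. That of Dnajb11 lay after the transcript start, so only its leading flank is given.
Dnajb11 (chr16:22857846-22857862): gcggcgATTGGcCCACG
Herpud1 (chr8:94386371-94386393): gcgctgATTGGgCCACGttggac

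Both forms end in CCACG, but no window held both. The core of the UPR element, TGACGTGG, was in 0 of the 28 genes and in 0.676% of all windows, and an ATF4-C/EBP element, TTGCATCA, was in Herpud1 and in 0.895% of all windows. Hsp90b1 was the gene with a pair of ERSEs, in opposite orientations. The 250 bases before the transcript start are given for Hspa5, the chaperone most often used as a readout of the UPR, and for Calr and Pdia6, whose values separated MSC from TAC in every library. Capitals mark the fixed letters of the ERSE, which runs on the opposite strand in Calr.
Hspa5 (chr2:34771840-34772089, plus strand): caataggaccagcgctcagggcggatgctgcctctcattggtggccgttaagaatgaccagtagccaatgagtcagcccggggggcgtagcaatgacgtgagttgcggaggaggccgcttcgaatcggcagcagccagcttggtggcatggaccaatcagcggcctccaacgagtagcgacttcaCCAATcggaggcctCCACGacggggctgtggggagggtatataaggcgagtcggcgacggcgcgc
Calr (chr8:84846932-84847181, minus strand): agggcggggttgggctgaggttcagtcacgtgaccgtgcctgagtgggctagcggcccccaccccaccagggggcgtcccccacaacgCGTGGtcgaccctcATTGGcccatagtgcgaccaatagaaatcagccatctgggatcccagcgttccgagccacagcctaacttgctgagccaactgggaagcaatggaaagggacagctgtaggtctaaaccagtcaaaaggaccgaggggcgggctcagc
Pdia6 (chr12:17266339-17266588, plus strand): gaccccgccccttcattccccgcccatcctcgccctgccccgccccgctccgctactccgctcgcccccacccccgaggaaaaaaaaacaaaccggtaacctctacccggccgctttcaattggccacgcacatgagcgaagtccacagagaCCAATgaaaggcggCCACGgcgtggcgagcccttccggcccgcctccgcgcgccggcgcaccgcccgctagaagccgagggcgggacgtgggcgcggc

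**Figure D1:**
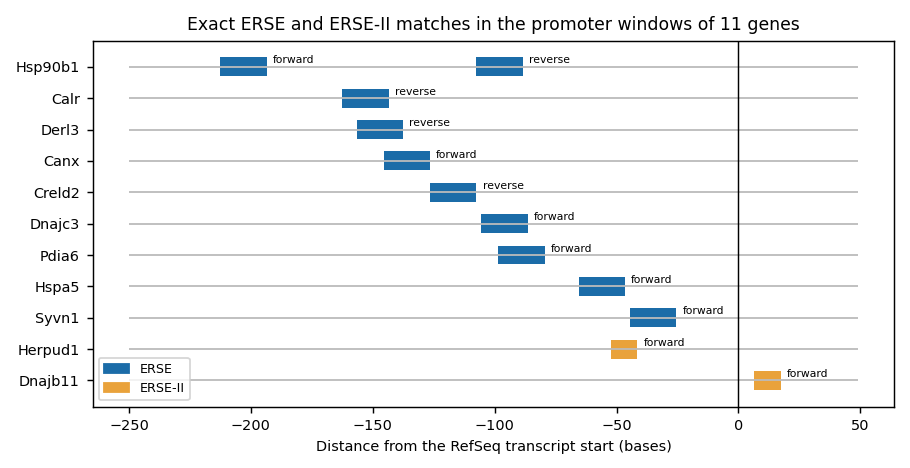
Position of exact ERSE (blue) and ERSE-II (orange) matches in the promoter windows of 11 genes, as the distance in bases from the RefSeq transcript start (0), with the orientation relative to the gene beside each match. The ERSEs lay between positions -212 and -26, and the ERSE-II of Dnajb11 lay after the start.

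The comparison of TAC with MSC asks whether the dividing cells carry more or less of the ER folding machinery than the stem cells. On the deposited scale every TAC value lay above every MSC value in 8 of the 33 genes tested, against 12.3% of all genes. These were the chaperones Hyou1 and Dnajb11, the lectin chaperone Calr, the disulfide isomerases Pdia3, Pdia6 and P4hb, the derlin Derl1 and the translocon subunit Sec61a1, with TAC to MSC ratios of the means from 1.28 (Derl1) to 2.08 (Dnajb11). The values of the sensors, and of every degradation gene but Derl1, overlapped between the groups. Of the 34 genes, 33 reached the mean value of 1 needed for testing, and Trib3 did not. In limma, 0 of 33 had an adjusted p-value under 0.05, against 0.422% of all 15391 genes tested (0.039% as higher in TAC and 0.383% as higher in MSC), so no single gene is called here. The unadjusted p-value was under 0.05 for 4 (11.9% of all genes), Pdia6, Sec61a1, Pdia3 and P4hb, all higher in TAC, where 5.42% of all genes were, and 0 were higher in MSC, where 6.43% of all genes were. The log2 difference, TAC minus MSC on the log2(value + 1) scale, was above 0 in 26 of the 33, against 51.5% of all genes, with a median of 0.34 against 0.03 over all genes. Of the 26, Sdf2l1 and Manf had a lower TAC mean on the linear scale. Summed over the 34 genes, the normalized value was 1794, 1817 and 1745 in MSC and 2630.2, 2648 and 2205 in TAC. As a share of estimated reads the sum was 0.307%, 0.310% and 0.438% in MSC and 0.470%, 0.466% and 0.538% in TAC. On that scale MSC replicate 3 lay nearer to TAC, and the chaperone sum overlapped (0.127% in MSC replicate 3 and 0.121% in TAC replicate 1). Pdia3, P4hb and Derl1 also overlapped between the groups as a share of estimated reads. Every MSC value lay above every TAC value in 0 of the 33, against 12.2% of all genes.

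These counts moved with the library sets. With the replicate number as a block, 0 of 33 passed the adjusted threshold, against 1.49% of all genes (0.604% as higher in TAC), and 9 had an unadjusted p-value under 0.05, against 20.4%. All 9 were higher in TAC, against 9.43% of all genes. With a batch term that set replicate 3 apart, 7 passed the adjusted threshold, against 11.8% of all genes, and all 7 were higher in TAC, against 5.22%. They were Calr (adjusted p 0.00657), Pdia6 (0.00817), Hsp90b1 (0.0123), Ssr1 (0.0144), Creb3l2 (0.0160), Pdia3 (0.0221) and P4hb (0.0360) in limma. In replicates 1 and 2 alone, 19 passed, against 44.2% of all genes. Of these, 17 were higher in TAC (20% of all genes) and Ddit3 and Sel1l higher in MSC (24.2%), and the error of this fit came from pairs of libraries that were very alike. The count of 4 at the unadjusted threshold was 2, 3 and 7 without MSC replicates 1, 2 and 3, where 4.31%, 4.37% and 8.63% of all genes were higher in TAC at that threshold. It was 1, 2 and 7 without TAC replicates 1, 2 and 3, where the shares were 2.61%, 2.64% and 5.65%. limma voom on estimated reads gave 0 at the adjusted threshold and 7 at the unadjusted one, all higher in TAC, against 8.41% of all genes.

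**Figure D2:**
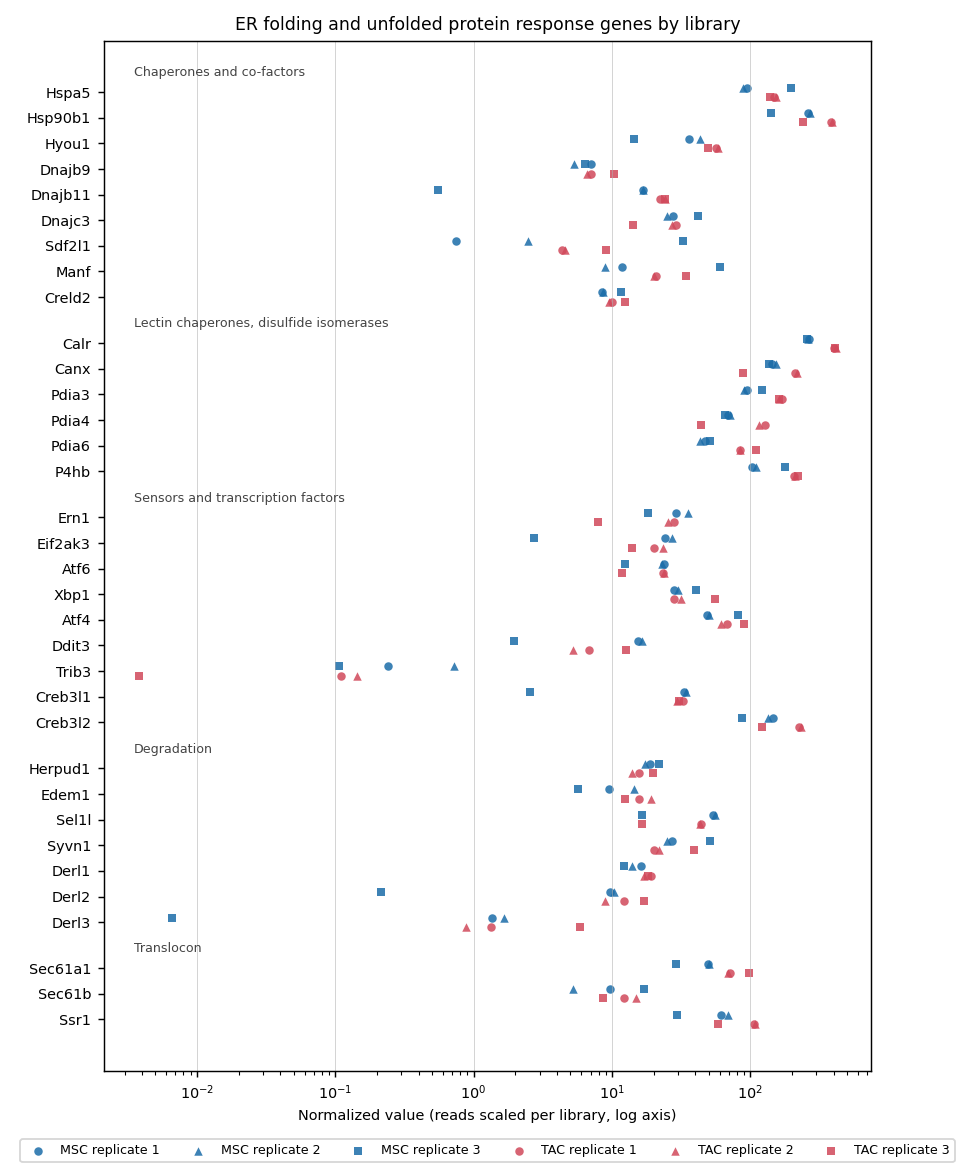
Normalized value of each of the 34 genes in each library on a log axis, grouped by role, with MSC libraries in blue and TAC libraries in red and a marker shape for each replicate number. Calr, Pdia3, Pdia6, P4hb and Sec61a1 have all red points to the right of all blue points, and the square of MSC replicate 3 lies far to the left for Dnajb11, Derl2, Derl3, Eif2ak3, Ddit3 and Creb3l1.

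**Figure D3:**
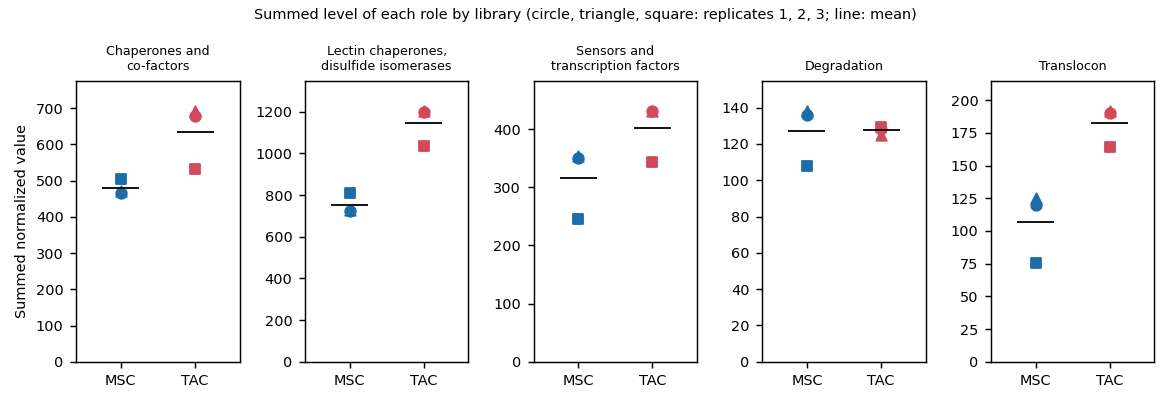
Summed normalized value of the genes of each role by library, with the mean of each group as a line and axes that start at 0. The lectin and disulfide sum was 723 to 810 in MSC and 1037 to 1205 in TAC, while the degradation sum overlapped between the groups.

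The lectin chaperones and disulfide isomerases held 3 of the 4 genes with an unadjusted p-value under 0.05, all higher in TAC, against 5.42% of all genes. Calnexin (Canx) and calreticulin (Calr) hold newly glycosylated proteins, and the protein disulfide isomerases (PDIs) form and rearrange disulfide bonds. The summed value of the 6 genes was 723, 731 and 810 in the 3 MSC libraries and 1201, 1205 and 1037 in the 3 TAC libraries. All 6 had a log2 difference above 0, against 51.5% of all genes, with a median of 0.67.

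Calr (chromosome 8, 84841850 to 84846935, minus strand) was 265, 262 and 257 in the 3 MSC libraries and 405, 419 and 412 in the 3 TAC libraries. On the deposited scale the library sets did not separate it, and the gap between the groups was far wider than the spread within either. On that scale the MSC mean was 261 ± 3.98 (SD, n = 3), the TAC mean 412 ± 7.12 (SD, n = 3) and their ratio 1.58. As a share of estimated reads, Calr was highest in replicate 3 of each group. The groups still did not overlap, but the gap between them was narrower than the spread within either. The nearest libraries were MSC replicate 3 (38652.5 of 59793645 estimated reads) and TAC replicate 1 (18490.3 of 25567244). The log2 difference was 0.65 (SE 0.30, limma adjusted p 0.447), where the SE is drawn toward the spread of genes of like level, and replicates 1 and 2 gave 0.64 and replicate 3 gave 0.68. Calr had the highest level per length of the 34 genes in both groups, 90.8 per kilobase of annotated exon in MSC and 143 in TAC.

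Pdia6 (chromosome 12, 17266545 to 17284771, plus strand) encodes a PDI that also attenuates sensor signaling. It was 47.1, 43.6 and 50.8 in the 3 MSC libraries and 83.8, 84.3 and 111 in the 3 TAC libraries. Every TAC library was above every MSC library, in both library sets. The MSC mean of 47.1 ± 3.63 (SD, n = 3) and the TAC mean of 92.9 ± 15.4 (SD, n = 3) gave a ratio of 1.97, with a log2 difference of 0.95 (SE 0.25, limma adjusted p 0.189, unadjusted p 0.00660), the smallest p-value of the 33 genes. Its adjusted p-value was between 1.67e-05 and 0.640 over the alternatives tried. Its exons overlap Atp6v1c2 in the annotation, and because the use of strand was not given, the value could include reads of that gene. Exons of Hsp90b1, Pdia3, Pdia4, Sec61a1, Derl2, Eif2ak3, Syvn1, Manf and Dnajb9 also overlap another annotated gene.

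Pdia3 (chromosome 2, 121413775 to 121438688, plus strand), the PDI that works with Calr and Canx, was 95.1, 90.0 and 122 in the 3 MSC libraries and 169, 161 and 162 in the 3 TAC libraries. P4hb (chromosome 11, 120560298 to 120573254, minus strand), the first PDI and also a subunit of collagen prolyl 4-hydroxylase, was 104, 110.4 and 179 in the 3 MSC libraries and 208, 209 and 219.9 in the 3 TAC libraries. In both genes MSC replicate 3 was the MSC library nearest to TAC, and the groups still did not overlap. The log2 difference of Pdia3 was 0.69 (SE 0.26, limma adjusted p 0.359, unadjusted p 0.0324), and that of P4hb was 0.74 (SE 0.31, adjusted p 0.412, unadjusted p 0.0474). The difference of P4hb was larger in replicates 1 and 2 (0.96) than in replicate 3 (0.30).

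Canx and Pdia4 were less even. Canx was 143, 153 and 137 in the 3 MSC libraries and 209, 217 and 88.1 in the 3 TAC libraries. Pdia4 was 69.1, 71.5 and 65.2 in the 3 MSC libraries and 127, 116 and 44.1 in the 3 TAC libraries. In both, TAC replicates 1 and 2 were above all MSC libraries and TAC replicate 3 was below them. Their log2 differences were 0.14 (SE 0.40, limma adjusted p 0.940) and 0.33 (SE 0.43, adjusted p 0.825), and without TAC replicate 3 they were 0.56 and 0.81.

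The folding chaperones split by gene. Hspa5 (BiP, chromosome 2, 34771970 to 34777548, plus strand), the HSP70 chaperone that also holds the sensors inactive, was 95.3, 88.4 and 196 in the 3 MSC libraries and 149, 152 and 139 in the 3 TAC libraries. MSC replicate 3 was the highest library of all and MSC replicates 1 and 2 the lowest, so the groups overlapped. The log2 difference was 0.31 (SE 0.36, limma adjusted p 0.807). Replicates 1 and 2 gave 0.71 and replicate 3 gave -0.49. Hsp90b1 (GRP94, chromosome 10, 86690209 to 86705510, minus strand), the HSP90 chaperone of the ER and the gene with the pair of ERSEs, was 261, 271 and 141 in the 3 MSC libraries and 381, 391 and 238 in the 3 TAC libraries. Replicate 3 was the lowest in each group, and each TAC library was above the MSC library with the same number. Its log2 difference was 0.61 (SE 0.40, adjusted p 0.613), 0.53 in replicates 1 and 2 and 0.75 in replicate 3, and 0.30 without MSC replicate 3.

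Hyou1 (GRP170), which exchanges the nucleotide of BiP, was 36.3, 43.4 and 14.5 in the 3 MSC libraries and 56.4, 58.4 and 49.7 in the 3 TAC libraries. TAC lay above MSC in every library, with a log2 difference of 0.92 (SE 0.43, limma adjusted p 0.461) that was 0.45 without MSC replicate 3. Dnajb11 (ERdj3), a co-chaperone of BiP, was 16.8, 16.7 and 0.552 in the 3 MSC libraries and 22.1, 24.3 and 24.3 in the 3 TAC libraries. Its groups did not overlap either, but its log2 difference of 1.64 (SE 0.93, adjusted p 0.552) was 0.47 without MSC replicate 3, which held 82 estimated reads of it. Dnajc3, which restrains PERK and aids BiP, was 27.6, 24.9 and 42.1 in the 3 MSC libraries and 29.2, 27.0 and 14.3 in the 3 TAC libraries. It was the 1 chaperone gene with a log2 difference below 0, at -0.43 (SE 0.38, adjusted p 0.716). Replicates 1 and 2 gave 0.096 and replicate 3 gave -1.49, and the difference was -0.13 without TAC replicate 3 and -0.21 without MSC replicate 3.

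The small stress-induced co-factors Sdf2l1, Manf, Creld2 and Dnajb9 had log2 differences of 0.14 to 0.35, with adjusted p-values of 0.854 to 0.974 in limma. For Sdf2l1 and Manf the group means ran the other way, 11.9 in MSC and 5.99 in TAC, and 27.1 in MSC and 25.1 in TAC. Sdf2l1 was 0.746 and 2.46 in MSC replicates 1 and 2 and 32.4 in MSC replicate 3, and Manf was 11.8, 8.90 and 60.5. Their TAC values were 4.38, 4.58 and 8.996, and 20.7, 19.98 and 34.5. For both, TAC was higher than MSC in replicates 1 and 2, with log2 differences of 1.16 and 0.93, and lower in replicate 3, with -1.74 and -0.79. Creld2 and Dnajb9 stayed between 5.29 and 12.4 in all 6 libraries. Hspa5, Sdf2l1 and Manf shared their highest library, MSC replicate 3, with Dnajc3 (42.1), Syvn1 (51.4), Herpud1 (21.8) and Sec61b (17.0). Plasma cell genes, 8 in all, summed to 571 in that library and 116 to 153 in the other 5, with Igkc at 382 against at most 5.88. Jchain, Mzb1 and Ighm were also highest there. Sdc1 (112), Prdm1 (3.86) and Cd79a (0.872) were lower there than in MSC replicates 1 and 2, and Irf4 had no read. The part of such cells in the values of these ER genes was not tested.

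**Figure D4:**
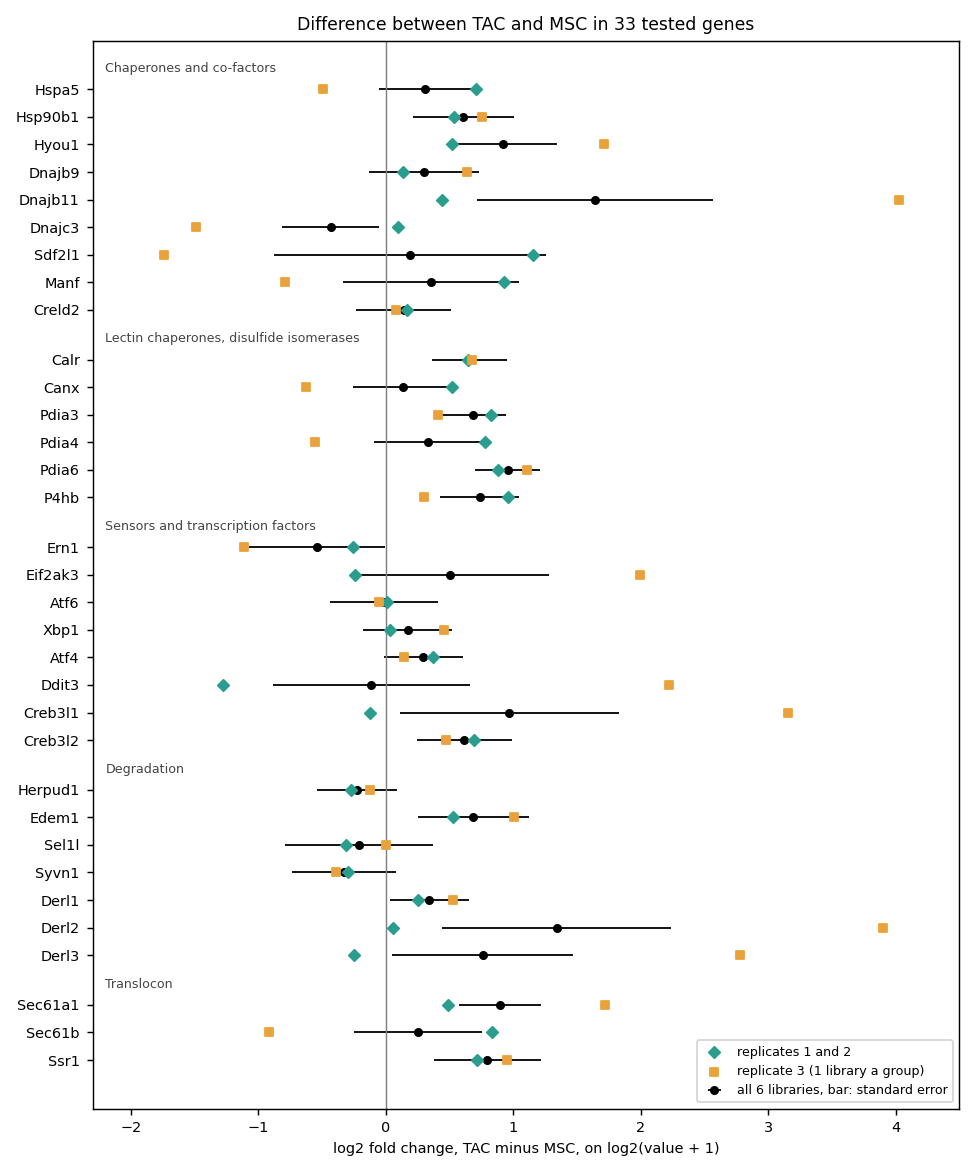
log2 difference of TAC minus MSC for the 33 tested genes over all 6 libraries (black, with the standard error), within replicates 1 and 2 (green) and within replicate 3 (orange), on the log2(value + 1) scale. Calr, Pdia6, Creb3l2 and Ssr1 have all 3 values close together above 0, while Sdf2l1, Manf, Ddit3 and Creb3l1 have the library sets on opposite sides of 0.

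The 3 sensors did not separate the groups. Ern1 was 28.8, 35.7 and 18.1 in the 3 MSC libraries and 28.1, 25.5 and 7.87 in the 3 TAC libraries, a log2 difference of -0.54 (SE 0.53, limma adjusted p 0.752). Each TAC value of Ern1 was below its like-numbered MSC value. Eif2ak3 was 24.4, 27.2 and 2.73 in the 3 MSC libraries and 19.98, 23.5 and 13.9 in the 3 TAC libraries. Its log2 difference of 0.50 (SE 0.78, adjusted p 0.869) became -0.44 without MSC replicate 3. Atf6 was 23.9, 23.1 and 12.3 in the 3 MSC libraries and 23.3, 24.0 and 11.8 in the 3 TAC libraries, and its log2 difference was -0.01 (SE 0.42, adjusted p 0.995). The Atf6 values of like-numbered libraries were nearly equal, and the only large step was between replicate 3 and the others. Per kilobase of exon the sensors were at 2.13 to 3.37 in either group, against 29.9 and 34.7 for Hspa5.

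The values of the transcription factors Xbp1, Atf4 and Ddit3 also overlapped between the groups. Xbp1, the factor whose mRNA IRE1 splices, was 28.1, 29.8 and 40.3 in the 3 MSC libraries and 27.9, 31.4 and 55.6 in the 3 TAC libraries (log2 difference 0.17, SE 0.35, limma adjusted p 0.908). These gene values do not separate spliced from unspliced Xbp1. Atf4, the factor translated when PERK slows other translation, was 49.03, 50.5 and 81.3 in the 3 MSC libraries and 67.5, 61.9 and 90.0 in the 3 TAC libraries (0.30, SE 0.31, adjusted p 0.776). Each TAC value of Atf4 was above the MSC value of the same number, and the groups overlapped through MSC replicate 3. Ddit3 (CHOP), a factor that promotes cell death under prolonged stress, was 15.4, 16.4 and 1.94 in the 3 MSC libraries and 6.79, 5.23 and 12.7 in the 3 TAC libraries. The library sets gave opposite signs, -1.28 for replicates 1 and 2 and 2.22 for replicate 3, and all samples together gave -0.11 (SE 0.77, adjusted p 0.978). Its exons overlap Mars. Trib3, a pseudokinase induced by CHOP, was 0.107 to 0.724 in MSC and at most 0.144 in TAC, with no read in TAC replicate 3, and was not tested.

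Creb3l1 (OASIS) and Creb3l2 are membrane-bound factors related to ATF6 that are known for their part in the secretion of bone and cartilage matrix. Creb3l2 was 147, 135 and 86.5 in the 3 MSC libraries and 225, 231 and 121 in the 3 TAC libraries. Each TAC value was above its like-numbered MSC value, although TAC replicate 3 was below MSC replicates 1 and 2, and the log2 difference was 0.62 (SE 0.38, limma adjusted p 0.584). The sets gave 0.69 and 0.47, and without MSC replicate 3 it was 0.38. Creb3l1 was 33.3, 34.4 and 2.54 in the 3 MSC libraries and 32.4, 29.5 and 30.6 in the 3 TAC libraries. MSC replicate 3 alone stood apart, so that its log2 difference of 0.97 (SE 0.86, adjusted p 0.717) was -0.13 without it. The summed value of 9 odontoblast genes was 2410 in MSC replicate 3 and 13006 to 16050 in the other 5 libraries, and that of 10 ameloblast and dental epithelium genes was 336 against 2606 to 3714. MSC replicate 3 was the lowest MSC library for 6 of the 8 odontoblast genes tested and 6 of the 10 ameloblast genes, against 59.2% of all genes. It was above MSC replicates 1 and 2 for Bglap, Bglap2, Amtn, Odam, Krt14 and Krt5. The part of these cells in the values of Creb3l1, Dnajb11, Derl2, Derl3, Eif2ak3 and Ddit3, which were also lowest in that library, was not tested.

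The degradation genes had summed values that overlapped between the groups. ER-associated degradation draws failed proteins through a membrane complex built on the ligase Syvn1 (HRD1) and its partner Sel1l, with the derlins and Herpud1. The summed value of the 7 genes was 108 to 138 in MSC and 125 to 129 in TAC, and 4 of 7 had a log2 difference above 0. Syvn1 was 27.1, 25.1 and 51.4 in the 3 MSC libraries and 20.01, 22.03 and 39.0 in the 3 TAC libraries. Sel1l was 53.3, 55.5 and 16.6 in the 3 MSC libraries and 44.0, 43.1 and 16.6 in the 3 TAC libraries. The ligase and its partner thus differed in opposite directions between the library sets, while each TAC value was at or below its like-numbered MSC value. Their log2 differences were -0.33 (SE 0.41, limma adjusted p 0.820) and -0.21 (SE 0.58, adjusted p 0.938), and that of Herpud1 was -0.22 (SE 0.31, adjusted p 0.850). The Syvn1 difference was -0.011 without MSC replicate 3 and -0.62 without TAC replicate 3.

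Edem1, a lectin that removes failed glycoproteins from folding, was 9.51, 14.4 and 5.70 in the 3 MSC libraries and 15.7, 19.2 and 12.5 in the 3 TAC libraries. Each TAC value was above its like-numbered MSC value. The log2 difference of 0.69 (SE 0.44, limma adjusted p 0.604) was 0.38 without MSC replicate 3. Of the derlins, which form part of the exit channel, Derl1 was 16.1, 14.0 and 12.3 in the 3 MSC libraries and 19.2, 16.9 and 18.2 in the 3 TAC libraries, without overlap but with a log2 difference of 0.34 (SE 0.31, adjusted p 0.723). Derl2 was 9.73, 10.4 and 0.213 in the 3 MSC libraries and 12.3, 8.97 and 17.2 in the 3 TAC libraries, and its log2 difference of 1.34 (SE 0.90, adjusted p 0.623) was 0.28 without MSC replicate 3, which held 31 estimated reads. Derl3, a derlin typical of professional secretory cells, was 1.36, 1.65 and 0.00666 (no read) in the 3 MSC libraries and 1.34, 0.887 and 5.92 in the 3 TAC libraries. Derl2 and Derl3 were at their highest in TAC replicate 3 and at their lowest in MSC replicate 3.

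Of the translocon genes, Sec61a1 separated the groups and Ssr1 and Sec61b did not. Sec61a1 (chromosome 6, 88503579 to 88518906, minus strand), the channel subunit, was 49.3, 50.6 and 28.8 in the 3 MSC libraries and 71.5, 69.0 and 97.4 in the 3 TAC libraries. The groups did not overlap, and the log2 difference was 0.90 (SE 0.32, limma adjusted p 0.336, unadjusted p 0.0257), smaller in replicates 1 and 2 (0.48) than in replicate 3 (1.72). Ssr1, a subunit of the translocon-associated protein complex, was 61.0, 69.1 and 29.5 in the 3 MSC libraries and 107, 108.0 and 58.0 in the 3 TAC libraries. Each TAC library was above its like-numbered MSC library, TAC replicate 3 was below MSC replicates 1 and 2, and the log2 difference was 0.79 (SE 0.42, adjusted p 0.522), or 0.43 without MSC replicate 3. Sec61b, the small subunit, was 9.67, 5.22 and 17.0 in the 3 MSC libraries and 12.3, 15.0 and 8.57 in the 3 TAC libraries, with a log2 difference of 0.25 (SE 0.50, adjusted p 0.906).

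Between the library sets, 25 of the 33 genes were higher in TAC in replicates 1 and 2 (46.7% of all genes) and 21 in replicate 3 (52.3% of all genes). In 17 the difference was above 0 in both sets, against 30.1% of all genes, and in 12 the sets had opposite directions, against 38.8% of all genes. MSC replicate 3 was the lowest MSC library in 19 of the 33, against 59.2% of all genes. Genes with and without the promoter element had log2 differences of like median over all 6 libraries, and the sets were not tested against each other. The 9 genes with an ERSE had log2 differences from -0.43 (Dnajc3) to 0.95 (Pdia6) with a median of 0.31, and 7 were above 0. The 16 tested genes whose window held neither form ran from -0.54 to 1.34 with a median of 0.32, and 13 were above 0.

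Other genes of the ER were examined by function, 137 listed and 131 tested. In limma 0 passed the adjusted threshold, as with voom, 6 had an unadjusted p-value under 0.05 as higher in TAC (5.42% of all genes) and 2 as higher in MSC (6.43%). The log2 difference was above 0 in 89, or 67.9% against 51.5% of all genes, with a median of 0.29. With the replicate block 0 passed, and 17 were higher in TAC (9.43% of all genes) and 4 higher in MSC (10.9%) at an unadjusted p-value under 0.05. With the batch term for replicate 3, 10 passed as higher in TAC (5.22% of all genes) and 1 as higher in MSC (6.56%). Among glycan addition and quality control genes, 2 of 18 had an unadjusted p-value under 0.05, both higher in TAC, against 5.42% of all genes. They were Mogs, the glucosidase that starts glycan trimming (0.97, SE 0.38, adjusted p 0.379), and Ostc, a subunit of the oligosaccharyltransferase (1.75, SE 0.73, adjusted p 0.410). Ostc was 1.94 in MSC replicate 3 and 16.9 or more in every other library, and the library sets gave 0.63 and 3.99. The other subunits of that complex on the list had log2 differences from -0.36 (Dad1) to 1.55 (Tusc3). Among translocation genes 1 of 22 did, against the same share of all genes, namely Ssr3, which was 35.7, 35.4 and 46.5 in the 3 MSC libraries and 59.4, 54.7 and 92.5 in the 3 TAC libraries (0.77, SE 0.30, adjusted p 0.383).

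Of 29 other folding genes 0 had an unadjusted p-value under 0.05, against 11.9% of all genes, and 17 (58.6%) had a log2 difference above 0, against 51.5%. The one with the smallest p-value was Serpinh1 (HSP47), the collagen chaperone, at 261, 265 and 346 in the 3 MSC libraries and 441, 469.9 and 550.2 in the 3 TAC libraries (0.75, SE 0.33, limma adjusted p 0.438). Its groups did not overlap, and the difference was alike in replicates 1 and 2 (0.79) and in replicate 3 (0.67). Of 20 other degradation genes, 1 was higher in TAC (5.42% of all genes) and 1 higher in MSC (6.43%) at the unadjusted threshold. Ube2j2 was higher in TAC (1.39, SE 0.59, adjusted p 0.417) and Herpud2 higher in MSC (-1.13, SE 0.37, adjusted p 0.288). Replicates 1 and 2 gave 0.55 for Ube2j2 and replicate 3 gave 3.07, with MSC replicate 3 the lowest library at 2.22. Of 21 COPII export and retrieval genes 0 passed it, against 11.9% of all genes, and 18 (85.7%) had a log2 difference above 0, against 51.5%. Lman1, the cargo receptor of that step, was 65.7, 52.9 and 45.9 in the 3 MSC libraries and 81.9, 81.3 and 75.6 in the 3 TAC libraries (0.54, SE 0.26, adjusted p 0.468).

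Among 21 tested stress response factors and targets, 2 were higher in TAC (5.42% of all genes) and 1 higher in MSC (6.43%) at an unadjusted p-value under 0.05. Cebpb, a transcription factor that partners ATF4 and CHOP, was 15.5, 13.4 and 11.1 in the 3 MSC libraries and 4.35, 3.16 and 1.11 in the 3 TAC libraries (-1.98, SE 0.52, limma adjusted p 0.188). Psat1 and Mthfd2, enzymes of serine and one-carbon metabolism that ATF4 induces, were higher in TAC, by 2.56 (SE 0.74, adjusted p 0.229) and 1.09 (SE 0.45, adjusted p 0.399). Sesn2 was 3.38, 5.48 and 0.00666 (no read) in the 3 MSC libraries and 6.63, 8.13 and 15.4 in the 3 TAC libraries (1.77, SE 0.79, adjusted p 0.444). Asns, another ATF4 target, was 4.37, 4.46 and 15.0 in the 3 MSC libraries and 16.5, 12.4 and 18.5 in the 3 TAC libraries (1.10, SE 0.53, adjusted p 0.482). Of the 21 genes, 13 (61.9%) had a log2 difference above 0, against 51.5% of all genes, and 8 below 0. Those below 0 included Ppp1r15a (-0.18), Atf5 (-0.19), Ddit4 (-0.10) and Slc3a2 (-0.068). The Psat1 difference was 1.48 in replicates 1 and 2 and 4.72 in replicate 3, where MSC held no read, and the groups overlapped for Asns. The summed value of 7 proliferation genes was 149 to 212 in MSC and 326 to 1009.9 in TAC, and its part in these differences was not tested. The summed value of 6 smooth muscle genes was 581 to 1325 in MSC and 44.9 to 52.3 in TAC. That of 6 endothelial genes was 165 to 235 and 71.3 to 110.1, and that of 8 macrophage genes was 73.5 to 177 and 42.6 to 103. The log2 difference was below 0 in 5 of the endothelial and 7 of the macrophage genes, but 0.0015 for Kdr and 0.49 for Adgre1. C1qa (14.8) and C1qb (40.6) were highest in TAC replicate 3. The summed value of 8 plasma cell genes was 147 to 571 in MSC and 116 to 142 in TAC. The part of these cells in the ER gene values was not tested. The summed value of 10 dental mesenchyme genes was 1188 to 1540.4 in MSC and 845 to 916 in TAC, although Msx1 and Msx2 of that list were higher in every TAC library than in any MSC library, as was Prdm1 of the plasma cell list, and that of the 3 skeletal muscle genes listed was at most 6.98. At least 1 library had no read of Dmp1, Mepe and Ibsp of the odontoblast list, Klk4 and Epcam of the ameloblast list, Jchain and Irf4 of the plasma cell list, Adgre1 of the macrophage list, Cnn1 and Des of the smooth muscle list, and Barx1 of the dental mesenchyme list.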

How the data were processed

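RNA of 3 MSC and 3 TAC samples was sequenced as single-end reads of 75 cycles. Reads had been trimmed and mapped to mm10 by the authors with TopHat 2.0.8, and the methods name RPKM. The submitters' processing notes also name CASAVA 1.8.2 and Partek. How reads were assigned to genes, and whether by strand, was not given in the sources used here. The deposited signal was not divided by gene length: genes of any length share one minimum per library, so values were treated as reads plus 1, scaled per library. Estimated reads are a value over that minimum, less 1. Of values under 20 estimated reads, 63.4% to 74.3% per library lay within 0.02 of a whole number, so no count model was the main test. Replicates 1 and 2 of a group differed by more than counting noise (median chi-square per gene 4.61 in MSC and 3.51 in TAC, 1 degree of freedom). Repeat libraries of 1 sample could also do so, so this does not tell whether they were separate samples. They were kept separate as labelled. The labels do not say what else separates the samples, so p-values may measure technical spread in part.

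Tests used limma 3.58.1 in R 4.3.3 on log2(value + 1), with the empirical Bayes variance trend, for the 15391 genes whose mean reached 1. TAC was compared with MSC by two-sided tests, with Benjamini-Hochberg adjustment over all genes tested and a threshold of 0.05. Differences are on that scale, which understates the change of low genes. The design assumed normalized values and its log-scale test was kept. The members and lists were chosen with earlier results of these data known. Values in every sample are given for genes with an unadjusted p-value under 0.05, the sensors, Xbp1, Atf4, Ddit3, Hspa5, Hsp90b1 and the 3 largest remaining differences of each role, and for Derl1, Manf, Sdf2l1, Sel1l, Syvn1 and Trib3 after their values were seen. Other ER lists are counted, with up to 5 genes of the smallest p-values named. Dad1, Tusc3, Ppp1r15a, Atf5, Ddit4 and Slc3a2 were also named, after their values were seen. Alternatives were other pseudocounts, filters, scalings and variance models, voom, the replicate block, a batch term for replicate 3, replicates 1 and 2 only, and each sample left out.

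The labels number the samples alike in both groups, and the study speaks of pairs of samples. Deviations from the group means correlated across genes by 0.4765, 0.4655 and 0.517 for like-numbered samples, which meets the condition for pairing. Crossing numbers 1 and 2 gave 0.462 and 0.480, so the shared deviation was that of replicate 3. The fit was tested on simulated data that held no shift between library sets. Coordinates are mm10 as deposited, with the end 1 base past that of GENCODE for most genes. Of the 34 genes, 30 had the same position in GENCODE release M21, whose exons gave the lengths. Promoter windows came from RefSeq GRCm38.p6.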

Additional observations from a re-analysis of the deposited data

How the results depend on the processing

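Over all genes the count of 65 past the adjusted threshold in limma was 38 with a pseudocount of 0.1, 114 with quantile normalization, 29 without the variance trend, 6 with voom, 229 with the replicate block, 1814 with the batch term for replicate 3, 6796 in replicates 1 and 2 only, 1824 at the unadjusted threshold, and 0 to 292 when 1 sample was left out (0 without MSC replicate 1 or 2 or TAC replicate 1 or 2, 36 without TAC replicate 3 and 292 without MSC replicate 3; unadjusted, the first 4 gave 1028 to 1367). For the 33 ER genes, 0 passed in every alternative except the batch term (7) and replicates 1 and 2 only (19), with 4 at the unadjusted threshold. For the other ER lists the same settings gave 11, 57 and 8, and 0 elsewhere. Pairing by the replicate block changed no call among the ER genes and lists.

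Directions reversed with replicates 1 and 2 only for Dnajc3 (0.096), Eif2ak3 (-0.24), Atf6 (0.0058), Creb3l1 (-0.13) and Derl3 (-0.25), with voom for Sdf2l1 (-0.75), Ddit3 (1.03) and Sec61b (-0.12), with a pseudocount of 8 for Sdf2l1 (-0.16) and with TMM scaling for Atf6 (0.031). Leaving out 1 sample gave ranges that crossed 0 for Atf6 (-0.31 to 0.30), Canx (-0.085 to 0.56), Creb3l1 (-0.13 to 1.53), Ddit3 (-0.95 to 0.33), Eif2ak3 (-0.44 to 1.02), Ern1 (-0.85 to 0.0094), Manf (-0.15 to 1.17), Sdf2l1 (-0.68 to 1.44), Sec61b (-0.13 to 0.64), Sel1l (-0.76 to 0.24) and Xbp1 (-0.12 to 0.36). The cause was not tested. The other 20 genes tested kept their direction in every alternative in which they were tested. Replicate 3 has 1 library a group, and low values in MSC replicate 3 limit Dnajb11, Derl2, Derl3, Creb3l1, Eif2ak3 and Ddit3.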
